A study of Homo sapiens with 2 samples.

Results

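The PI3K-related kinases are a family of very large proteins that share a kinase domain related to that of the lipid kinase PI3K. The genes examined were PRKDC, ATM, ATR, MTOR, SMG1 and TRRAP, taken by name, and their peaks were those that carried the Entrez identifier of one of these 6 genes in the peak's name. The peak list held 65 such entries of 17163 in all, in 5 of the 6 genes. The list came from iCLIP, in which ultraviolet light links a protein to the RNA it touches and the linked RNA is sequenced, of DDX18, a nucleolar RNA helicase. There was 1 group of 2 samples, replicates 1 and 2, of H9, an established human embryonic stem cell line, expressing DDX18 with a FLAG tag in 3 copies (3XFlag-DDX18) under normal culture on a layer of inactivated mouse fibroblasts, and irradiated at 254 nm with 160 mJ/cm2. The labels do not say from which promoter the tagged protein was expressed or whether the samples came from separate cultures. With 1 group and no control such as an input or an untagged line, no groups were compared and no test was run.

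DNA-PK, ATM and ATR are the kinases that start the response to damaged DNA. PRKDC encodes the catalytic subunit of DNA-PK, which holds broken DNA ends together with the Ku proteins for end joining. ATM responds to double-strand breaks and ATR to single-stranded DNA at stalled replication forks. MTOR is the kinase that matches cell growth, translation and ribosome production to nutrients, and SMG1 phosphorylates UPF1 during nonsense-mediated decay of mRNA. TRRAP has the family's fold but no kinase activity and is a scaffold of the TIP60 and SAGA histone acetyltransferase complexes.

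Each listed peak has 1 height, a whole number that the authors deposited without scaling to depth or RNA abundance. The list names no replicate, and whether both samples were pooled before peaks were called is not stated. Each also has a value named PH0 in the file and a p-value, and both are the authors' values. PH0 is read here as the height expected for the gene, an assumption, since its computation is not given in the sources used here. PH0 was the same for every peak of a gene, in all 6695 genes of the list. No value per replicate is in the list, so no error between samples can be given, the reads per sample are unknown here, and the intervals below are exact 95% binomial intervals (Clopper-Pearson) for counting error only. Markers of the cell type were present in part: 7 of 9 pluripotency genes had a peak, led by PODXL with 31, LIN28A with 16 and DNMT3B with 16, and none was listed for POU5F1 and SOX2. Of 10 fibroblast-type genes 5 had one, led by FN1 with 10, and none was listed for COL3A1, VIM, POSTN, LUM and DCN. Of all protein-coding genes, 31.0% had a peak. The part of feeder RNA in any value below was not tested.

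PRKDC carried most of the family's peaks. It had 43, MTOR had 11, TRRAP 8, SMG1 2, ATR 1 and ATM none. Beside 31.0% of the 20056 protein-coding genes, 5 of these 6 had a peak. Among the 6218 protein-coding genes with a peak the median was 1 peak per gene and the maximum 56. Only 0.0643% of them had 43 peaks or more, which is PRKDC and 3 other genes, and 3.17% had 11 or more, 5.31% had 8 or more and 47.3% had 2 or more. PRKDC, MTOR and TRRAP thus stood among the genes with many peaks. SMG1 stood near the middle, and ATR's 1 peak was both the median and the lowest count of these genes. Without a measure of expression, the number of peaks was not separated from the abundance or length of each RNA.

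PRKDC lies on the minus strand of chromosome 8 (hg19). All 43 of its peaks were annotated to exons of 1 transcript, NM_006904 of 86 exons, between positions 48686612 and 48848423. Of them, 42 lay in coding sequence and 1 in the 3' UTR, and no intronic peak was listed. Heights ran from 9 to 23 with a median of 12 (quartiles 10.5 and 14) and summed to 546. A peak was found in 42 exons, or 48.8% of the exons of the transcript (37.9 to 59.9), because exon 36 had 2. The peaks were narrow, from 1 to 31 nt wide and 7 nt at the median.

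From the 5' end, no peak was listed in exons 1 to 12 of PRKDC. The first stood in exon 13 with a height of 10. Exons 16, 17 and 18 followed with heights of 12, 9 and 17. Exons 20, 21, 23 and 25 had peaks of 13, 10, 13 and 11. Most peaks of this opening stretch were thus close to the gene's median of 12, and that of exon 18 was the highest.

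The longest unbroken run covered the 7 exons from 27 to 33, each with 1 peak, of heights 14, 12, 10, 14, 14, 15 and 12. After exon 34, which had none, exons 35 to 38 held 5 peaks of heights 11, 14, 18, 11 and 23. The highest peak of the gene, 23, lay in exon 38 at positions 48794026 to 48794027. The pair in exon 36, of heights 14 and 18, was the only one within a single exon, and the centres lay 55 nt apart. Exons 40, 42 and 43 had 13, 13 and 11, exons 45 and 46 had 16 and 14, and exons 48, 49, 51 and 52 had 12, 9, 10 and 17. From exon 13 to exon 57, at most 2 neighbouring exons in a row had no peak.

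Toward the 3' end the peaks were fewer between exons 57 and 71. Exons 55 and 57 had 11 and 14, and exons 62, 65 and 69 had 11, 10 and 10, with exons 58 to 61 empty. A run of 5 exons, 71 to 75, then had heights of 13, 13, 12, 15 and 10, and exon 77 had 17. Exons 78 to 83 had none, and the last 3 exons had 9, 14 and 9. The last value is the single 3' UTR peak, in exon 86 at positions 48686612 to 48686623.

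**Figure D1:**
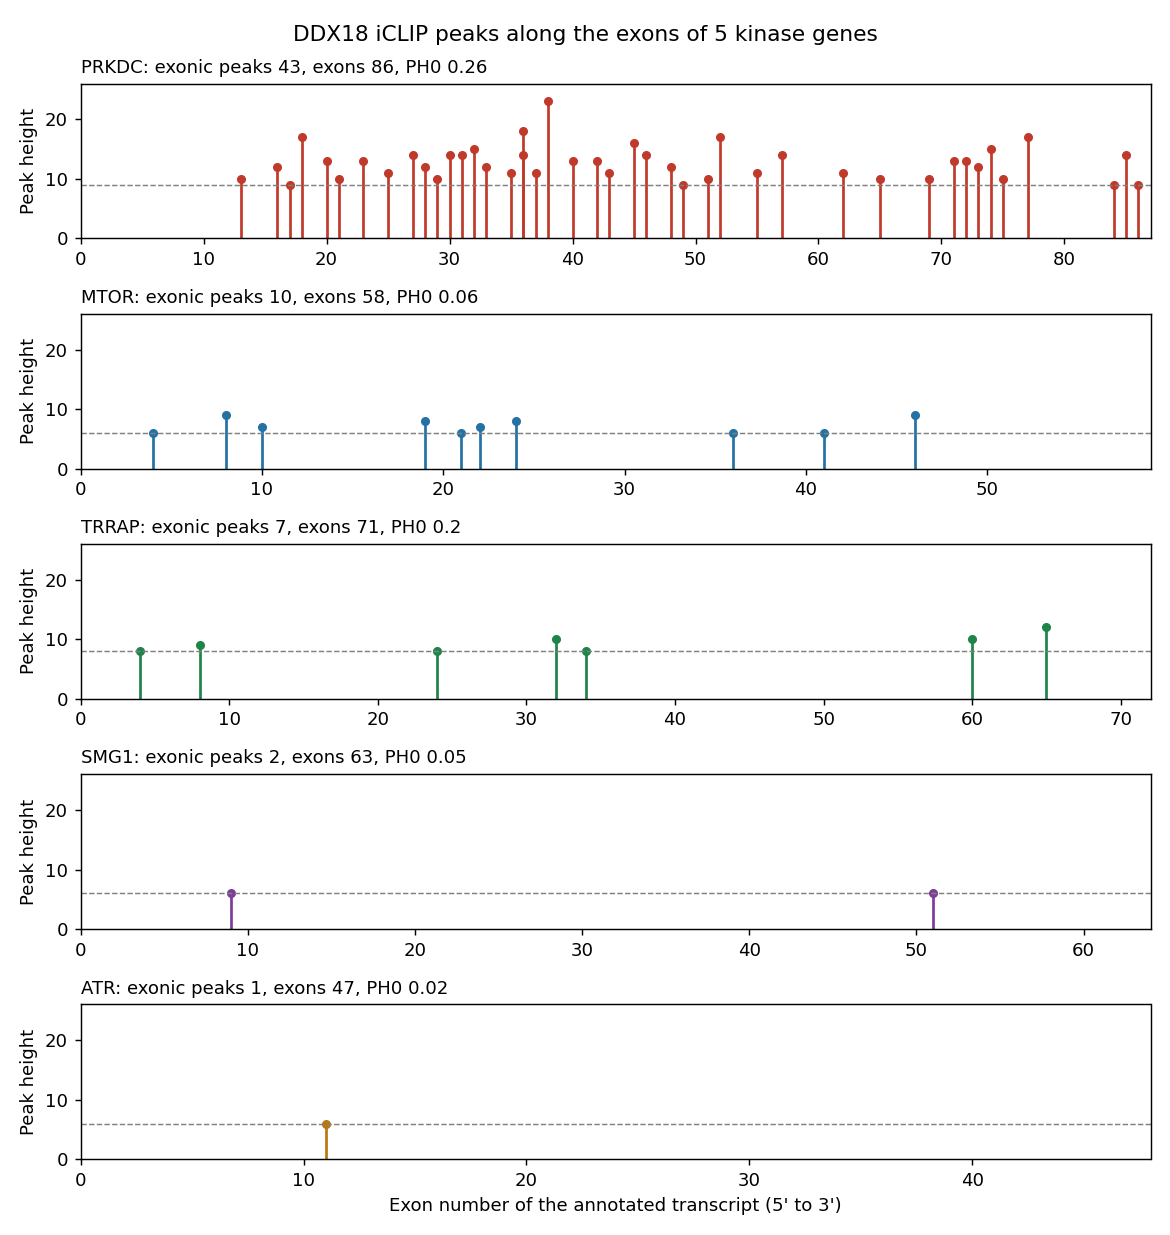
Height of each exonic peak (vertical axis) against the exon number of the annotated transcript, 5' to 3' (horizontal axis), for the 5 kinase genes with a peak; each stem is 1 peak, and the dashed line marks the lowest height listed in that gene. PRKDC has 43 stems from exon 13 to exon 86 with heights of 9 to 23, MTOR 10, TRRAP 7, SMG1 2 and ATR 1; 1 further peak each of MTOR and TRRAP has no exon number and is not drawn.

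The exons of PRKDC were also split by number into 3 equal parts. The first part held 10 exonic peaks (23.3%, 11.8 to 38.6), the middle part 21 (48.8%, 33.3 to 64.5) and the last part 12 (27.9%, 15.3 to 43.7). Median heights in these parts were 12, 13 and 11.5. In other protein-coding genes with transcripts of 30 or more exons, the 1935 exonic peaks fell 28.1% in the first part, 31.4% in the middle and 40.5% in the last. Exonic peaks include those in 3' UTRs, which numbered 216 in these other genes and 1 in PRKDC. How far 3' UTR peaks account for the share of the last part was not tested. Peaks of 1 transcript share their source and are not replicates, so these shares were set side by side without a test. Height showed next to no relation to exon number within PRKDC (Spearman's rho -0.05 over 43 peaks of 1 RNA).

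Neighbouring PRKDC peaks lay a median of 2566 nt apart on the genome, from 55 to 14418 nt. All but the 55 nt distance include introns, so they are not distances along the mRNA. The widest distance separated the peaks of exons 65 and 69, and one nearly as wide, 14378 nt, separated those of exons 40 and 42.

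The PH0 of PRKDC was 0.26, above that of 87.6% of protein-coding genes with a peak. Within each of the 5 genes the deposited p followed the height alone. In PRKDC a height of 9 had a p of 0.00818 (4 peaks), 10 had 0.000237 (7 peaks), 11 had 6.21e-06 (6 peaks), 12 had 1.6e-07 (5 peaks) and 13 had 2.68e-08 (6 peaks). The 15 peaks of height 14 or more all had 1.78e-08, so the p does not rank the highest peaks. No height under 9 was listed in PRKDC, and over the 28 protein-coding genes with the same PH0 the lowest height listed was 8.

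MTOR lies on the minus strand of chromosome 1. Its 11 peaks lay between positions 11166618 and 11317050, with 10 in coding exons of NM_004958, of 58 exons, and 1 labelled as the transcript's end site. Exons 4, 8 and 10 had heights of 6, 9 and 7, and exons 19, 21, 22 and 24 had 8, 6, 7 and 8. Exons 36, 41 and 46 had 6, 6 and 9, and the end-site peak had 7. The heights thus spanned only 6 to 9, at a median of 7, and none reached the PRKDC median of 12. A peak was found in 17.2% of the exons (8.59 to 29.4).

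The MTOR peaks were spread over the transcript with wide empty stretches. Exons 11 to 18, 25 to 35 and 47 to 58 had none, and the stretch from exon 24 to exon 36 spanned 71480 nt of genome between peak centres. Neighbouring peaks were otherwise 703.5 to 20176 nt apart. PH0 was 0.06, and the p fell from 0.0199 at height 6 to 2.23e-08 at height 9. Of the 11 peaks, 3 had their nearest start site at MTOR-AS1, an antisense RNA gene within MTOR, but they were called on MTOR's own strand and no peak was called in MTOR-AS1.

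TRRAP lies on the plus strand of chromosome 7 and held the family's highest peak, which carried no TRRAP exon label. That peak had a height of 145 at position 98479458, was 1 nt wide, and was annotated to the end of the microRNA gene MIR3609, 185 nt after its start. In the RefSeq gene table, which describes GRCh38, MIR3609 is 80 nt long, and SCARNA28, a small Cajal body RNA gene of 194 nt, begins 47 nt and ends 240 nt after the start of MIR3609. A position 185 nt after that start falls within SCARNA28 on that build, and the placement on hg19 was not checked. The peak held 69.0% of TRRAP's summed height of 210. A highest peak of this size or more was found in 1.72% of protein-coding genes with a peak.

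The other 7 TRRAP peaks were in coding exons of NM_003496, of 71 exons. Exons 4 and 8 had heights of 8 and 9, exon 24 had 8, exons 32 and 34 had 10 and 8, and exons 60 and 65 had 10 and 12. They summed to 65 at a median of 9, between the medians of MTOR and PRKDC. A peak was found in 9.86% of the exons (4.06 to 19.3), and the widest empty run was exons 35 to 59, across 35558 nt of genome between peak centres. TRRAP's PH0 was 0.2, and its lowest height, 8, had a p of 0.0198. PH0 is a value per gene, and how far the peak of 145 entered it is not given in the sources used here.

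SMG1, on the minus strand of chromosome 16, had 2 peaks, in exons 9 and 51 of the 63 exons of NM_015092. Both had a height of 6 and a p of 0.00862, and they lay 51049 nt apart. SMG1 has near-identical pseudogene copies on the same chromosome, of which the gene table lists 7. The handling of reads that match several places is not given in the sources used here, so the count for SMG1 is uncertain. Peaks were called in SMG1P3 (2, of height 5 at most) and in SMG1P2 (19, of height 16 at most). Those 19 all lay at positions also called in other genes. SMG1 was not among these other genes, since both of its peaks lay at positions called in SMG1 alone.

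ATR, on the minus strand of chromosome 3, had 1 peak, in exon 11 of the 47 exons of NM_001184 at position 142272726, with a height of 6 and a p of 3.4e-05. A height of 6 thus had a different p in ATR, SMG1 and MTOR, whose PH0 values were 0.02, 0.05 and 0.06. ATM, on chromosome 11, had no listed peak. NPAT, the neighbouring gene with which ATM shares its promoter region, had 2 peaks with a highest of 6, and MCM4, the neighbour of PRKDC across a shared promoter region, had 2 with a highest of 10.

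**Figure D2:**
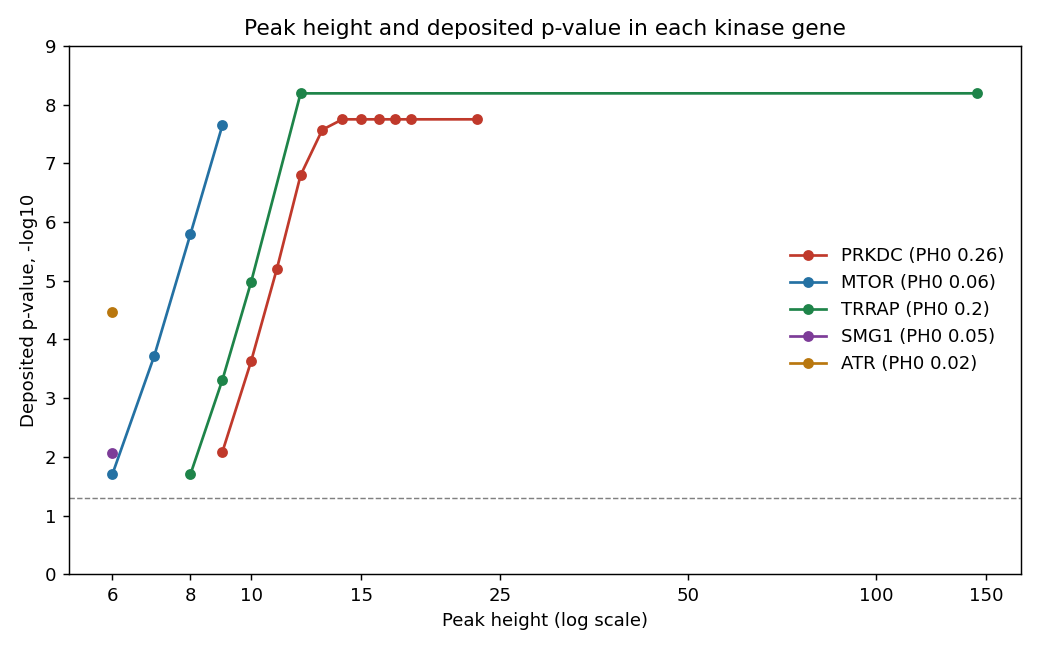
Deposited p-value as -log10 (vertical axis) against peak height on a log scale (horizontal axis) for each height found in the 5 genes; lines join heights of 1 gene, and the dashed line marks a p of 0.05. Each gene starts at its own lowest height, 6 for MTOR, SMG1 and ATR, 8 for TRRAP and 9 for PRKDC, and the p of PRKDC no longer falls from height 14 on.

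Since the lowest height listed differed between genes, the counts were also taken at 1 common height, chosen after the data were seen. At a height of 9 or more PRKDC had 43 peaks, TRRAP 5, MTOR 2, and SMG1 and ATR none. This height is PRKDC's own lowest listed height, so PRKDC kept all its peaks and only the other genes could lose some. Its lead at this height was therefore fixed in advance. The order of MTOR and TRRAP turned around at this height. TRRAP's 5 include the peak of 145 that carries no TRRAP exon label. In exonic peaks alone TRRAP had 4 and MTOR 2.

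Most of the listed peaks of these genes were in coding exons. Of the 65 peaks, 62 lay in coding exons (95.4%, 87.1 to 99.0), 1 in a 3' UTR, 2 at labelled transcript ends and none in introns, 5' UTRs or at start sites. Over all 16079 entries called in protein-coding genes, 47.4% were in coding exons, 19.0% in 3' UTRs and 17.8% in introns. Over other genes with transcripts of 30 or more exons, whose coding sequence is long, the coding share was 76.5% (74.7 to 78.3), with 9.82% in 3' UTRs and 7.64% in introns. That last group holds only genes with an exonic peak, since exon numbers were known for those alone. Most of the 65 peaks are those of 1 gene, PRKDC, so the share is largely a value of that RNA. Exonic peaks of the family reached heights of 6 to 23 and 11 at the median (quartiles 9 and 13). Those of the other genes with long transcripts had a median of 9 (7 and 13). By gene, the median exonic height was 12 in PRKDC, 9 in TRRAP, 7 in MTOR and 6 in SMG1 and ATR. Only PRKDC thus lay above the 9 of the other genes.

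Transcripts with many exons have more room for peaks, so the kinases were set beside the 373 protein-coding genes that had an exonic peak and an annotated transcript of 30 or more exons. Their median was 2 exonic peaks per gene. PRKDC, with 43, was exceeded by 3 of them, MTOR, with 10, by 43, TRRAP, with 7, by 70, and SMG1, with 2, by 185. In this group 1.07% of genes had 43 exonic peaks or more, 13.9% had 10 or more and 20.4% had 7 or more. Per annotated exon PRKDC had 0.50 exonic peaks, MTOR 0.17, TRRAP 0.099, SMG1 0.032 and ATR 0.021, where the median of the group was 0.065. On that scale 13 genes exceeded PRKDC. Exon numbers were read from the peak labels, and whether each label named a transcript of the called gene was not checked. Some of the 373 genes may thus carry the exon number of an overlapping gene.

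The genes most like PRKDC were named by their number of exonic peaks. FRAS1, an extracellular matrix protein gene, had 52 on 74 exons, DYNC1H1, the heavy chain of cytoplasmic dynein, 50 on 78, HSPG2, the gene of perlecan, 44 on 97, and MACF1, a linker of actin and microtubules, 42 on 93. Their median exonic heights were 9, 16, 13.5 and 10, against 12 in PRKDC. The share of exons with a peak was 54.1% in FRAS1, 53.8% in DYNC1H1, 41.2% in HSPG2 and 36.6% in MACF1, so PRKDC's 48.8% lay within their range. Of the 12 genes with as many exons as PRKDC or more and an exonic peak, LRP1 (36 peaks), UBR4 (15), HERC2 (9), SYNE2 (8), MDN1 (7), ADGRV1 (4), HMCN1 (2), SYNE1 (1) and TTN (1) made up the rest. A large number of exons thus went with anything from 1 to 44 peaks.

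**Figure D3:**
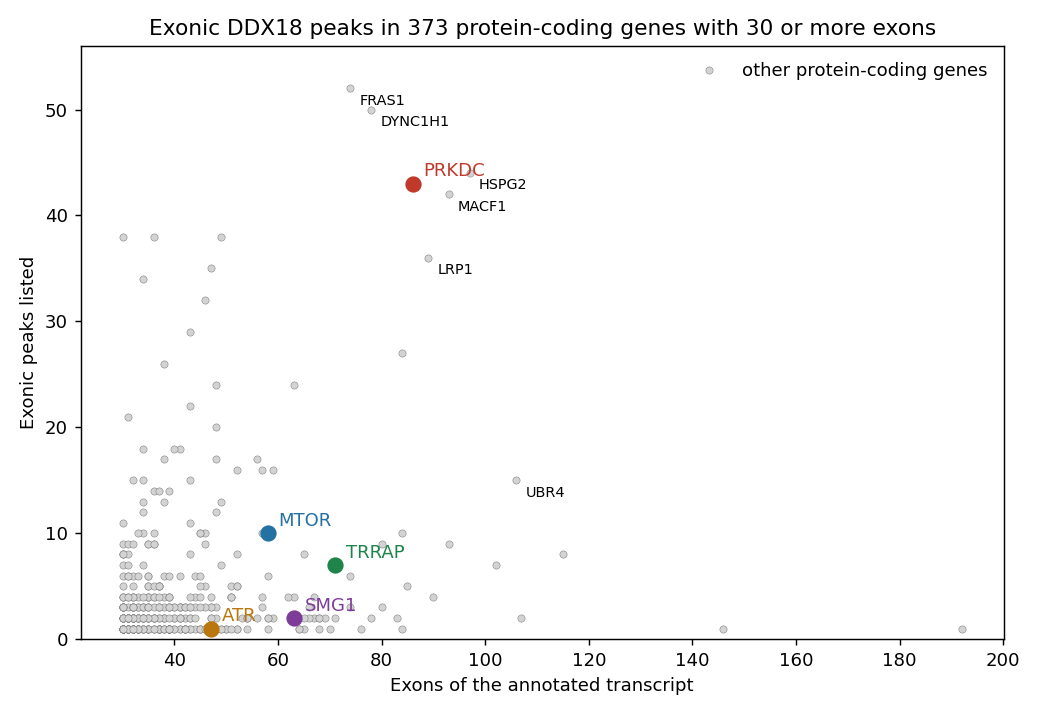
Exonic peaks per gene (vertical axis) against the number of exons of the annotated transcript (horizontal axis) for the 373 protein-coding genes with an exonic peak and 30 or more exons; grey points are other genes and coloured points the kinases. PRKDC, at 43 peaks, stands with HSPG2, MACF1, FRAS1 and DYNC1H1 above the other genes of more than 60 exons, whereas MTOR (10), TRRAP (7), SMG1 (2) and ATR (1) lie among the other genes.

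The partners of these kinases were followed in 8 lists of 135 distinct genes, of which 66 had a peak (48.9%, 40.2 to 57.6). In the list of DNA-PK and end joining, 3 of 10 genes had one (30%, 6.67 to 65.2), a share close to the 31.0% of all protein-coding genes. XRCC5, which encodes the Ku80 subunit that recruits DNA-PK to DNA ends, had 15 peaks of heights 8 to 18, of which 14 were exonic. XRCC6, which encodes Ku70, had 6 of heights 7 to 10, all exonic, and PARP1, a sensor of DNA breaks, had 11 of heights 8 to 20, all exonic. The 7 genes without a peak were LIG4, XRCC4, NHEJ1, DCLRE1C, PAXX, POLL and POLM, which process, bridge and seal the ends.

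Around ATM, 8 of 13 genes of double-strand break signalling had a peak, at a median of 1 among those with one. TP53BP1, a reader of marked chromatin at breaks, had 4 peaks (highest 11), MDM2, a ubiquitin ligase, had 2 (highest 11) and RNF168, the ubiquitin ligase that marks chromatin at breaks, had 2 (highest 7). MRE11, RAD50 and NBN, the complex that activates ATM, had 1 each, of heights 7, 6 and 5. Around ATR, 7 of 16 genes had a peak, with RPA1, a subunit of the protein that coats single-stranded DNA, at 6 (highest 9) and the ATR activator TOPBP1 at 2 (highest 6). ATRIP, the partner that brings ATR to DNA, and CHEK1, its main target kinase, had none. The third named gene, TIPIN, had 1 peak of height 120, annotated to the end of the small Cajal body RNA gene SCARNA14 inside it.

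Of the 25 MTOR partners and regulators 9 had a peak. RPTOR, the scaffold of complex 1, had 4 (highest 9). PRR5, a subunit of complex 2, had 2 (highest 10), and EIF4EBP1, the translation repressor that MTOR phosphorylates, had 2 (highest 9). In both PRR5 and EIF4EBP1 the highest peak was labelled intronic. TSC2, picked out after its value was seen, had a single peak of height 1818 labelled as a start site. RICTOR, MLST8 and RHEB had none. Nonsense-mediated decay genes around SMG1 had a peak in 8 of 9. UPF1, the helicase that SMG1 phosphorylates, had 3 (highest 9). SMG6, the endonuclease, had 3 (highest 6, with 2 of the 3 exonic). SMG8, a subunit of the SMG1 complex, had 2 (highest 10). UPF3B was the gene without one.

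The TRRAP complexes had a peak in 17 of 38 genes. USP22, the ubiquitin protease of SAGA, had 11 (highest 16), SF3B3, shared by SAGA and the spliceosome, had 6 (highest 203, at the snoRNA gene SNORD111), and MORF4L2 had 6 (highest 23). Of the chaperones and cochaperones that assemble PI3K-related kinases 6 of 9 had one. The genes of the general chaperone HSP90 led, with HSP90AA1 at 12 (highest 21) and HSP90AB1 at 10 (highest 73, at the microRNA gene MIR4647). RUVBL1 had 4 (highest 23, labelled as the start site of a non-coding transcript, with 1 of the 4 exonic). TELO2 and TTI2, members of the adaptor named TTT, had none. TTI1, its other member, had 3 (highest 9, with 1 of the 3 exonic). The list of lipid kinases, the nearest relatives by domain, also held regulatory subunits of these kinases, and 10 of its 18 genes had one. PIK3R4, which encodes a regulatory subunit, had 4 (highest 8). The kinase genes PIK3C2A and PI4K2B had 3 (highest 6) and 1 (height 9). None of the genes in the 8 lists had more than 15 peaks, and 5 of the 135 had 10 or more. The lists were not tested. Their shares of genes with a peak ran from 30% to 88.9%, beside 31.0% of all protein-coding genes, and their median peaks per gene with a peak from 1 to 11, beside 1.

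**Figure D4:**
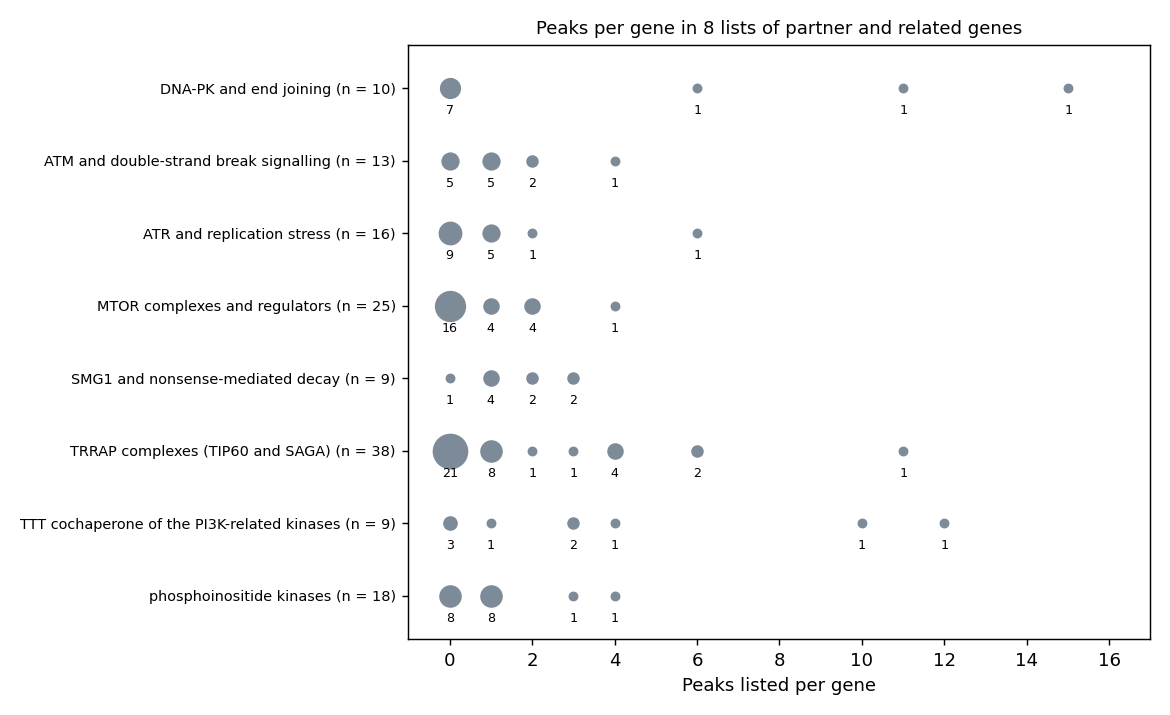
Peaks per gene (horizontal axis) in 8 lists of partner and related genes (rows); each circle stands for the genes of a list with that number of peaks, and its size and the figure under it give how many genes. Most genes had 0 to 4 peaks, and XRCC5 (15), HSP90AA1 (12), PARP1 and USP22 (11 each) and HSP90AB1 (10) lie farthest to the right.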

How the data were processed

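The deposited file is 1 list of significant peaks that names no replicate. It was taken to cover both samples, and whether they were pooled before peak calling is not stated. Per the file header, peaks were annotated on hg19 with annotatePeaks.pl of HOMER. FastQC 0.10.1, BWA and hg19 are named, per the submitters' processing notes. How peaks were called and tested, and how duplicate and multiply matching reads were treated, is not given in the sources used here. Peak height is a signal the authors deposited as whole numbers, unscaled. PH0 and the p-value were read from each peak's name as the authors deposited them, with p up to 0.05. Distances to start sites are other values the authors deposited. Genes were matched by Entrez identifier to the RefSeq table of GRCh38.p14 (6677 of 6695), used for names, biotypes, gene lengths and the relative order of neighbouring genes.

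Counts, medians, percentiles and exact intervals were computed with Python 3.11.15, pandas 2.3.3 and SciPy 1.17.1, and checked on simulated names. Named were all members, the 3 partners with most peaks per list, the 5 genes with most exonic peaks and those with as many exons as PRKDC. Other genes were named to complete a complex, and 1 list gene is not reported here. The members and lists were chosen with earlier results of these data known. No sequence is shown, since no table used here covers the peak positions. No test was run, since there is 1 group without values per replicate. Alternatives changed the p limit, the height limit, the gene assignment and small RNAs.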

Additional observations from a re-analysis of the deposited data

How the results depend on the processing

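PRKDC had the most peaks of the 6 genes under every peak setting tried, though the height limit of 9 could remove none of its peaks. It also kept all 43 at p up to 0.01, at positions called in 1 gene only, and without small RNAs and repeats. The height limit of 10 lies above MTOR's highest peak of 9, so MTOR could keep none there. The 65 peaks became 41 with p up to the list's median of 3.87e-05 (median height 13), 35 by the gene of the nearest start site (exonic share 100%, median height 12) and 43 at a height of 10 or more (median height 13). At a height of 9 or more, added after the data were seen, the median height was 12. By nearest start site PRKDC kept 29 peaks, because 14 lie nearer to CEBPD, and TRRAP none. PRKDC's percentile for peaks per gene was 99.9 over all protein-coding genes with a peak, 98.9 among those with 30 or more exons, 96.0 there per exon and 90.9 per kilobase of gene span, the last also added later. Gaps between PRKDC peaks had a median of 2561 nt, against 2566 nt between centres. Scaling by transcript length was not run, since the table used gives gene spans only. Leaving out a replicate was not possible with 1 shared list. No paired analysis was possible because the result comes from no test and there is 1 group. Reads per sample are unknown here, and a gene with no listed peak, such as ATM, may have had reads below the height listed.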
